A study of Mus musculus with 2 samples.

Results

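Polycomb repressive complex genes were described here as 10 named genes, taken by symbol from the 43346 genes of the deposited tables: Ezh1, Ezh2, Eed, Suz12 and Jarid2 of Polycomb repressive complex 2 (PRC2), and Ring1, Rnf2, Bmi1, Cbx2 and Cbx7 of Polycomb repressive complex 1 (PRC1). All 10 were found in both libraries, together with 73 of the 103639 listed transcripts. The data are total RNA sequencing of limb from mouse embryos of strain B6NCrl at 14.5 days, with 1 group of 2 libraries, labelled biological replicates 1 and 2, and no treatment, mutant or second stage. The starting amount was 10 ng of RNA, and the labels describe each sample as 4 limbs of a pup, with sex given as pooled. Donor, pup and pregnancy carry identical numbers in the labels of both samples although the collection days differ. The Y-linked counts given with the demethylases differ between the libraries, which goes against the shared pup number. The SD over n = 2 measures the spread between these libraries, whose technical and biological parts cannot be told apart. The p-values of the exact binomial test cover counting error only and do not measure that spread.

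PRC2 places methyl groups on lysine 27 of histone H3 through EZH2 or its paralog EZH1, which need EED and SUZ12 for activity, and JARID2 is an accessory subunit that helps to bring the complex to chromatin. PRC1 attaches ubiquitin to histone H2A through the RING1 and RNF2 (RING1B) E3 ligases paired with a PCGF protein such as BMI1, and CBX proteins of the canonical complex bind the methylated H3. In the limb bud, Polycomb complexes are known for keeping Hox and other developmental genes silent where they are not needed.

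The libraries held 34193161 and 32879425 expected counts in total, and 15222 and 15379 genes stood at 1 TPM (transcript abundance corrected for length and scaled to one total in each library) or more. All 7 limb mesenchyme markers were at 1 TPM or more in both libraries, with a summed level of 382.5 TPM in replicate 1 and 480.6 TPM in replicate 2. Markers of liver summed to 1.62 and 1.52 TPM, of heart to 1.86 and 2.24 TPM, and of lung to 0 and 0.28 TPM. Neuron markers summed to 10.6 and 10.45 TPM. The tissue also held cartilage (887 and 902.1 TPM summed over 5 markers), muscle, epidermis, red cells, endothelium (193.3 and 193.8 TPM) and leukocytes (240.3 and 230.4 TPM), so each level below is an average over these cells. In such bulk samples, fewer cells of a type and less RNA per cell cannot be told apart.

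The alternative coding segments of Suz12 and Ezh2 are shown first, because the transcript values below turn on them. The transcripts Suz12-201 and Suz12-206 were both abundant and differ by a coding segment of 69 nt on chromosome 11, plus strand, chr11:79999057-79999125 (GRCm38). The segment is in capitals, with 24 nt of exon on each side in lower case, and the same junction without it follows.
Suz12-201: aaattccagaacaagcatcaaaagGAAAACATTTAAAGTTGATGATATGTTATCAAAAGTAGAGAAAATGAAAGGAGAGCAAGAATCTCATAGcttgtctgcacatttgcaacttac
Suz12-206: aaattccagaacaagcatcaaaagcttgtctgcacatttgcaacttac
The main Ezh2 transcript, Ezh2-201, holds 2 coding segments that minor transcripts lack, both on the minus strand of chromosome 6. The first, of 27 nt (chr6:47576536-47576562), is absent from Ezh2-204, and the second, of 126 nt (chr6:47541845-47541970), is absent from Ezh2-202.
Ezh2-201, segment absent from Ezh2-204: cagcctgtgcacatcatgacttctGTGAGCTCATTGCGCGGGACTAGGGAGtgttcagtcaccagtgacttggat
Ezh2-201, segment absent from Ezh2-202: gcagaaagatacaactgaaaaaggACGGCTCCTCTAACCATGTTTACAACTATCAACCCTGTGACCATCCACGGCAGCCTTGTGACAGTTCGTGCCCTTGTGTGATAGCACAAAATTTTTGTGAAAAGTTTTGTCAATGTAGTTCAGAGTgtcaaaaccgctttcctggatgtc
Ezh2-204 in turn holds 15 coding nt (chr6:47551717-47551731) that Ezh2-201 lacks.
Ezh2-204: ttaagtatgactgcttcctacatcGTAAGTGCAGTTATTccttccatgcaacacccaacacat
All 4 segments lie within the annotated coding region and have lengths that are multiples of 3, so each keeps the reading frame. Sequences are from the GENCODE M21 transcripts, in which Ezh2-201 is 2787 nt long against 2652 nt in the deposited tables. The deposited length of Ezh2-202 is 2115 nt, so it differs from Ezh2-201 by more than the 126-nt segment.

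The promoters of the genes were rich in CpG. RefSeq windows of 300 bases (GRCm38.p6), from 250 bases before to 50 after the start, were matched for 9 of the 10 genes, all but Cbx2, with 2 windows for Jarid2. These 10 windows held 17 to 41 CpG dinucleotides with a median of 27, against a median of 7 over all 32851 windows. The latter were not selected for expression, and no comparison with expressed genes alone was made. Motifs of E2F factors, cell cycle regulators, were searched as the letters TTTCCCGC and TTTGGCGC on both strands, a choice made after the sequences had been seen. TTTCCCGC was found in the Suz12 window and in 1.07% of all windows, and TTTGGCGC in the Ezh2 window and in 0.514% of all windows. The matches are in capitals, within runs at chr11:79992876-79992905 (plus strand) and chr6:47595009-47595038 (minus strand).
Suz12 promoter: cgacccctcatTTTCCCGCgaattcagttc
Ezh2 promoter: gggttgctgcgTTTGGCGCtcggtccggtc
A match describes letters only and shows no binding.

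All 10 genes were detected at 1 TPM or more in both libraries, and their levels spanned 43.02-fold, from Rnf2 at 81.31 TPM to Cbx7 at 1.89 TPM. The TPM of Cbx7 lay below its deposited interval in both libraries. On the posterior mean TPM, also deposited, Cbx7 was at 3.17 and 3.91 and Rnf2 at 80.69 and 82.45, a narrower span. In descending order of mean TPM the genes were Rnf2, Ezh2, Eed, Cbx2, Bmi1, Jarid2, Suz12, Ezh1, Ring1 and Cbx7, and this order was the same in each library. For 2 of the 9 pairs of neighbours, Cbx2 with Bmi1 and Jarid2 with Suz12, the ranges over the libraries overlapped, so that the higher gene's lower value lay below the lower gene's higher value. Within each library Jarid2 was nevertheless above Suz12 and their deposited intervals did not overlap, whereas those of Cbx2 and Bmi1 did. Ring1 and Cbx7 were apart in TPM, yet the intervals deposited by the authors for them overlapped in both libraries. Among 13178 nuclear protein-coding genes at 1 TPM or more in both libraries, Rnf2 stood at percentile 86.7, Jarid2 at percentile 51.5 and Cbx7 at percentile 5.23.

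**Figure D1:**
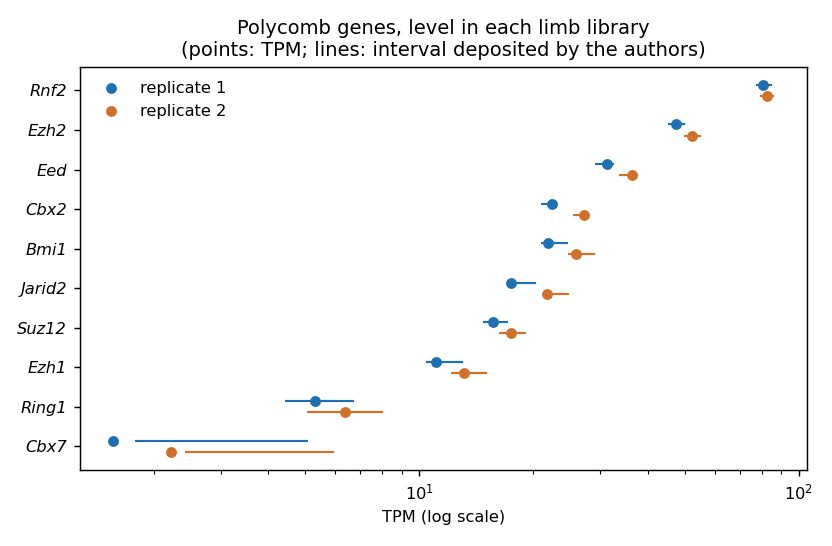
TPM of each Polycomb gene (log axis) in replicate 1 and replicate 2, with lines for the interval deposited by the authors. Rnf2 is highest at 80.36 and 82.27 TPM and Cbx7 lowest at 1.56 and 2.22 TPM; the Cbx7 points lie below their intervals, which surround posterior means of 3.17 and 3.91 TPM.

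Of the H3K27 methyltransferases, Ezh2 was the more abundant. Ezh2 (ENSMUSG00000029687.12, chr6:47530139-47595341, minus strand) stood at 47.35 and 52.33 TPM in replicates 1 and 2, a mean of 49.84 ± 3.521 (SD, n = 2). Ezh1 (ENSMUSG00000006920.10, chr11:101191115-101226463, minus strand), the paralog usually associated with non-dividing cells, was at 11.09 and 13.1 TPM, a mean of 12.09 ± 1.421 (SD, n = 2). The values of the pair do not overlap, and Ezh2 was higher in both libraries. The log2 ratio of Ezh2 over Ezh1, computed on TPM + 0.1 in each library, was 2.04 ± 0.07 (SD, n = 2), or 4.1-fold. Ezh2 held 80.5 ± 0.739% of the summed TPM of the pair. No test of a ratio is given, because an exact sign-flip test of 2 values cannot go below p = 0.5. Cell cycle genes were detected too, with all 8 listed at 1 TPM or more in both libraries. Cdk1, the mitotic kinase, was the highest of them at a mean of 315.5 TPM, followed by Birc5, a spindle regulator, at 208.5 TPM. Mki67, the proliferation antigen, was the lowest at 38.75 TPM. The part of proliferation in the levels of Ezh2 and Ezh1 was not tested. Of the 8 cell cycle genes listed, 1 was higher and 1 lower in replicate 2 by the exact binomial test described below. Among all tested genes 12.4% were higher and 14.6% lower.

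The non-catalytic PRC2 core genes differed in level. Eed (ENSMUSG00000030619.8, chr7:89954654-89980983, minus strand), whose protein binds methylated H3K27 and stimulates the enzyme, was at 31.32 and 36.29 TPM, a mean of 33.8 ± 3.514 (SD, n = 2). Suz12 (ENSMUSG00000017548.11, chr11:79993106-80034123, plus strand), the scaffold, was at 15.68 and 17.5 TPM, a mean of 16.59 ± 1.287 (SD, n = 2). Every Eed value was above every Suz12 value, and the log2 ratio of Eed over Suz12 was 1.02 ± 0.04 (SD, n = 2), or 2.03-fold.

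Jarid2 (ENSMUSG00000038518.11, chr13:44729474-44921643, plus strand) was at 17.49 and 21.72 TPM, a mean of 19.6 ± 2.991 (SD, n = 2). Its lower value lay just below the higher Suz12 value, and the log2 ratio of Jarid2 over Suz12 was 0.23 ± 0.11 (SD, n = 2), or 1.18-fold. Of 10 other PRC2 partners listed, 9 were at 1 TPM or more in both libraries. The histone chaperones Rbbp7 (336.7 ± 13.68 TPM) and Rbbp4 (256.8 ± 7.601 TPM), which also serve other chromatin complexes, were the highest. Ezhip, an inhibitor of PRC2, was at 0 counts in both libraries, where a count of 0 allows up to 3 counts.

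Among the PRC1 ligase genes, Rnf2 was far more abundant than its paralog Ring1. Rnf2 (ENSMUSG00000026484.9, chr1:151458004-151500955, minus strand) was at 80.36 and 82.27 TPM, a mean of 81.31 ± 1.351 (SD, n = 2). Ring1 (ENSMUSG00000024325.8, chr17:34020792-34024680, minus strand) was at 5.31 and 6.39 TPM, a mean of 5.85 ± 0.7637 (SD, n = 2). The log2 ratio of Rnf2 over Ring1 was 3.78 ± 0.16 (SD, n = 2), or 13.7-fold, and Rnf2 held 93.3 ± 0.714% of the summed TPM of the pair. Rnf2 shares 158 nt on the opposite strand with Trmt1l (26.27 and 32.56 TPM), and the sources used here do not say whether the counting used strand.

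Bmi1 (ENSMUSG00000026739.9, chr2:18677018-18686629, plus strand), also called Pcgf4, was the most abundant of 6 PCGF genes, which decide the type of PRC1 assembled. It was at 21.8 and 25.96 TPM, a mean of 23.88 ± 2.942 (SD, n = 2), and held 24.9 ± 0.224% of the family's TPM. The share was spread widely, since Pcgf1, of a variant complex, held 22.3%, Pcgf3 18.6% and Pcgf2, the closest paralog of Bmi1, 15.8%. Pcgf5 held least at 4.32%. Pcgf1 stood at 19.07 and 23.77 TPM, below Bmi1 within each library, but the ranges of Bmi1 and Pcgf1 over the libraries overlapped. The log2 ratio of Bmi1 over Pcgf2 was 0.65 with an SD of 0.00 (n = 2), or 1.57-fold.

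Of the chromodomain genes, Cbx2 was an abundant one and Cbx7 the lowest. Cbx2 (ENSMUSG00000025577.7, chr11:119022962-119031270, plus strand), whose protein compacts chromatin, was at 22.38 and 27.22 TPM, a mean of 24.8 ± 3.422 (SD, n = 2). Cbx7 (ENSMUSG00000053411.12, chr15:79915807-79971119, minus strand), the main CBX of embryonic stem cells, was at 1.56 and 2.22 TPM, a mean of 1.89 ± 0.4667 (SD, n = 2), from 121 and 161 counts. The log2 ratio of Cbx2 over Cbx7 was 3.66 ± 0.14 (SD, n = 2), or 12.6-fold. It was 2.74 on the posterior mean TPM that the authors also deposited, since Cbx7 stood at 3.17 and 3.91 TPM there. Of the summed TPM of the Polycomb CBX genes, Cbx6 held 47.3%, Cbx2 30 ± 2.97%, Cbx8 10.3% and Cbx7 2.28 ± 0.476%. Cbx7 overlaps Apobec3 by 100 nt on the opposite strand, and Apobec3 was at 18.38 and 21.16 TPM.

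**Figure D2:**
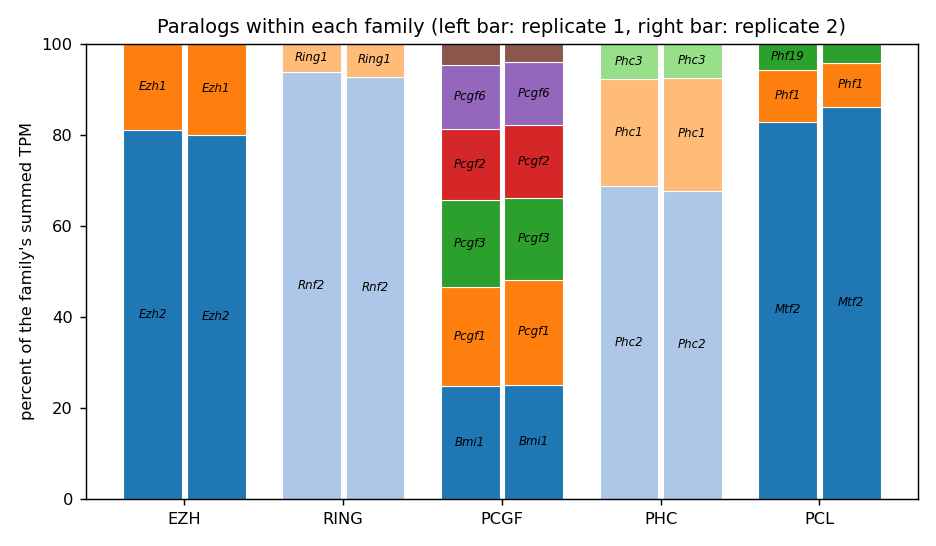
Percent of the summed TPM of each of 5 paralog families held by each gene, with replicate 1 at left and replicate 2 at right. Rnf2 holds 93.3% of the RING pair and Ezh2 80.5% of the EZH pair on average, whereas no PCGF gene holds more than the 24.9% of Bmi1; Phc2 holds 68.2% of the PHC family and Mtf2 84.5% of the PCL family.

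All 10 genes were led by a protein-coding transcript by the deposited percent, in each library and on average, and on average so were 91.7% of 9543 protein-coding genes with 2 or more transcripts. By posterior mean 9 of 10 were in replicate 1, where Cbx7 was led by a retained intron, and 10 of 10 in replicate 2. A single transcript held nearly the whole of Cbx2 (Cbx2-201, 98.1% of the gene's TPM on average), Eed (Eed-201, 97.2%) and Rnf2 (Rnf2-201, 95.9%). Jarid2-208 held 86% of Jarid2. Bmi1 was split between Bmi1-201 (73.56 and 69.03%) and the shorter coding Bmi1-202 (22.35 and 26.79%).

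Suz12 was led by Suz12-206, the transcript without the 69-nt segment, at 46.09 and 50.79%. Suz12-201, with the segment, held 43.88 and 29.27%. The values of these transcripts do not overlap, but the authors' intervals for them do in both libraries: in replicate 1 Suz12-206 ranged from 3.754 to 9.942 TPM and Suz12-201 from 3.904 to 9.974 TPM. The noncoding Suz12-203, of 651 nt and annotated as a retained intron, held 7.96% of the gene's TPM in replicate 1 and 16.76% in replicate 2. These percents came from only 15.85 and 34.77 of the gene's 1395 and 1313 counts.

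Ezh2-201, with both the 27-nt and the 126-nt segment, held 65.94 and 66.85% of Ezh2. Ezh2-204, which lacks the first, held 9.63 and 6.85%, and Ezh2-202, which lacks the second, 7.34 and 5.63%. The form carrying both segments was the most abundant one in each library.

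For 4 of the 10 genes, transcripts annotated as retained introns held 10% or more of the gene on average, against 23.6% of the 9543 genes. These were Ezh2 (11.6 and 15.1%), Suz12 (10 and 19.9%), Ring1 (24.3 and 41.5%) and Cbx7 (20 and 17.5%). In Ring1 the coding Ring1-201 held 75.61% in replicate 1 and 58.6% in replicate 2, and the short retained intron Ring1-202, of 371 nt, 11.94 and 28.31% from 3.97 and 10.56 counts. The other retained intron, Ring1-203, held 12.45 and 13.09%. The median share of coding transcripts was 87.1% over the 10 genes and 92.9% over the 9543 genes.

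The split of Ezh1 and Cbx7 depended on the estimate. Ezh1-203 held 67.38 and 66.24% of Ezh1 by the deposited percent, but 25.76 and 41.12% by posterior mean, with Ezh1-202 moving from 0.04 and 0% to 36.15 and 20.64%. Ezh1-201 held 11.54 and 7.98%. Ezh1-202 and Ezh1-203 share 4193 nt, and 14 nt are found only in Ezh1-202. In Cbx7 the coding Cbx7-203 held 49.52 and 75.96%, the coding Cbx7-201 22.76 and 6.68%, and the retained intron Cbx7-207 20.05 and 17.37%. By posterior mean, the 148-nt retained intron Cbx7-209 held 27.32 and 23.68% of Cbx7, against 0% in both libraries by the deposited percent, and Cbx7-203 held 22.65 and 38.92%.

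**Figure D3:**
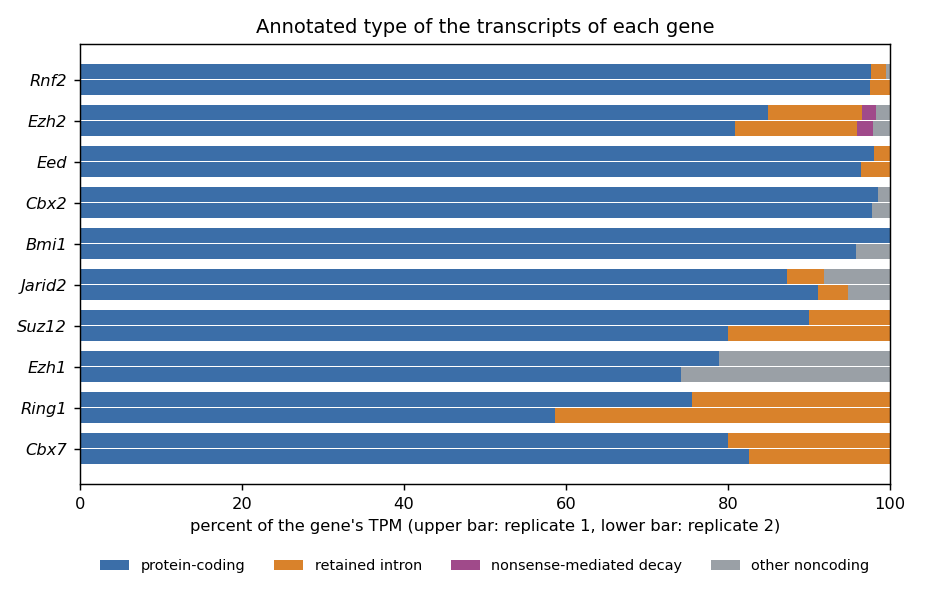
Percent of each gene's TPM held by transcripts of each annotated type, with replicate 1 as the upper and replicate 2 as the lower bar. Coding transcripts hold 58.5% (Ring1, replicate 2) to 100% (Bmi1, replicate 1), and retained introns hold most in Ring1, at 24.3 and 41.5%.

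The libraries were then compared with each other, which compares 2 samples of 1 group and no conditions. By counts scaled with TMM, 3 of 10 genes were higher in replicate 2 and none lower, by a two-sided exact binomial test that covers counting error only, with Benjamini-Hochberg adjustment over 19153 genes. Among all those genes 27% were called, 12.4% as higher and 14.6% as lower in replicate 2. In either direction the share of 3 in 10 is near the background. The count depended on the scaling: 5 of 10 genes were called with total counts as library sizes, where 28.4% of all genes were, and 6 of 10 with spike-in counts, where 30.9% of all genes were. Of all calls 45.9% were higher in replicate 2 with TMM, 59.8% with total counts and 69.1% with spike-in counts as the scaling. Jarid2 had 2185 and 2553 counts, a 1.185-fold difference (adjusted p = 1.16e-07, exact binomial test). Cbx2 had 1885 and 2126 counts, a 1.144-fold difference (adjusted p = 0.0002131, exact binomial test). Bmi1 had 1594 and 1748 counts, a 1.113-fold difference (adjusted p = 0.01132, exact binomial test). Cbx7 missed the threshold at adjusted p = 0.05277, with a 1.349-fold difference by the same exact test. No gene of the 10 differed by more than 1.5-fold. With the exact test of edgeR, whose dispersion was estimated from the same libraries (a biological coefficient of variation of 0.09916), 0 of 10 genes were called, 0 had an unadjusted p under 0.05, and 0.668% of 16920 genes were called. The differences between these libraries themselves set that dispersion, so this test can call few genes. Here and below, a count of 0 from it does not show that levels were equal.

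By TPM all 10 genes were higher in replicate 2, as were 65.45% of the 15307 genes averaging at least 1 TPM. The median log2 difference in TPM was 0.24 over the 10 genes and 0.07 over all those genes, while by counts the medians were 0.10 over the 10 genes and -0.00 over the tested genes. By counts 7 of 10 genes were higher and Rnf2, Suz12 and Ring1 lower in replicate 2, except that with spike-in scaling Suz12 alone was lower. The effective length that enters TPM was 3868 and 3495 nt for Suz12 and 1801 and 1532 nt for Ring1, shorter in replicate 2, where retained introns held more of both genes. It was shorter there for 7 of the 10 genes and for 32.1% of the 15307 genes, with a median ratio of 1 over the latter. For Rnf2 (2979 and 2987 nt), Jarid2 (5433 and 5477 nt) and Cbx7 (3376 and 3381 nt) it was longer in replicate 2. Their TPM ratios were also above their count ratios. The part of effective length in the TPM difference was not tested.

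**Figure D4:**
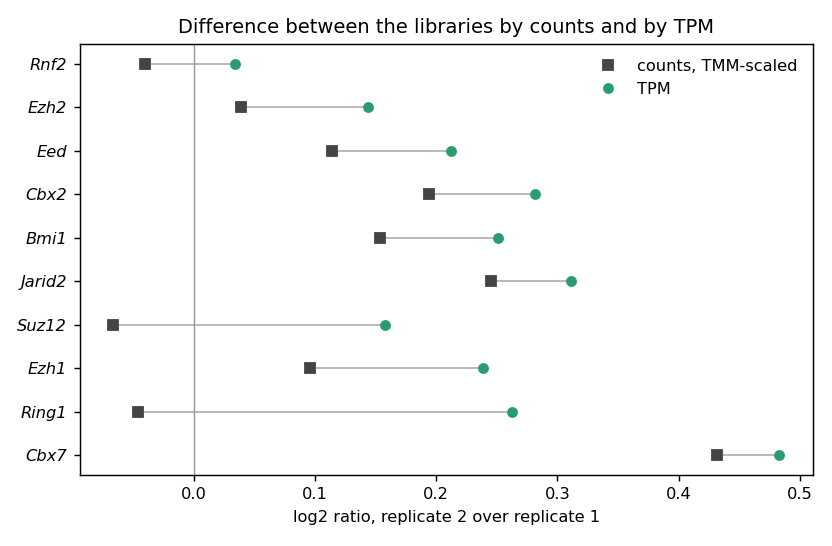
Log2 ratio of replicate 2 over replicate 1 for each gene, by TMM-scaled counts (squares) and by TPM (circles). Counts give -0.07 (Suz12) to 0.43 (Cbx7) and TPM 0.03 (Rnf2) to 0.48 (Cbx7), so every TPM value lies right of its count value.

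Markers of some cell types differed between the libraries too. Muscle markers summed to 2721 and 1862 TPM in replicates 1 and 2, and 8 of 8 were lower by the exact binomial test. Red cell markers were at 25930 and 17230 TPM (7 of 7 lower), epidermis markers at 1454 and 1256 TPM (6 of 6 lower), and limb mesenchyme markers at the sums given above (7 of 7 higher). Among all tested genes 12.4% were higher and 14.6% lower. Cartilage was mixed, with 1 of 5 markers higher and 3 lower, while 1 of 5 leukocyte markers was lower and 0 of 5 endothelium markers were called. With edgeR's exact test, 2 of 8 muscle, 3 of 7 red cell, 0 of 6 epidermis and 0 of 7 limb mesenchyme markers were called. Its background is 0.668%. The part of these marker differences in the differences of Jarid2, Cbx2 and Bmi1 was not tested.

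Of the 62 other genes of the pathway listed, 59 were at 1 TPM or more in both libraries. By the exact binomial test 12 of 61 tested were higher and 7 lower in replicate 2, against 12.4% and 14.6% of all genes, and edgeR's exact test called 0 of 60, where its background is 0.668%. Among PRC2 partners Aebp2 was higher and Phf19 lower, both named after their values were seen. No other PCGF gene was called, and among the CBX genes Cbx8 (9.43 and 7.52 TPM) was lower while Cbx6 (38.38 and 39.77 TPM) was not called.

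The remaining PRC1 genes ranged widely. Among 8 PHC and SCM genes, Phc2, a Polyhomeotic protein that links complexes, was highest (55.05 ± 2.001 TPM), followed by Scmh1 (30.54 ± 2.899 TPM). Scml4 was lowest and lower in replicate 2, with 63 and 34 counts (0.5512-fold, adjusted p = 0.02345, exact binomial test). Of 14 genes of variant PRC1, all at 1 TPM or more, Dcaf7 (51.58 ± 4.66 TPM) and Yaf2 (45.86 ± 0.9546 TPM), which binds the RING proteins, led and Bcorl1 was lowest (5.265 ± 0.02121 TPM). By the exact binomial test 2 of the 14 were higher and 2 lower, against 12.4% and 14.6% of all tested genes.

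Genes that act against Polycomb marks were also detected. Of 10 genes of PR-DUB, the complex that removes ubiquitin from H2A, Ogt (162.1 ± 6.937 TPM) and the catalytic subunit Bap1 (56.77 ± 2.546 TPM) were highest and Foxk1 lowest (3.44 ± 0.4667 TPM); 1 was higher and 0 lower. The other H2A deubiquitinases were Usp21 (68.14 ± 8.047 TPM), Usp16 (42.01 ± 3.649 TPM) and Mysm1 (20.77 ± 2.376 TPM), of which 2 were higher. Of 6 trithorax genes, which oppose silencing, 4 were higher and 0 lower. Those 4 differed by 1.071-fold (Kmt2a) to 1.133-fold (Kmt2c) in counts. Men1 (49.87 ± 2.843 TPM), Ash1l (17.12 ± 1.648 TPM) and Kmt2a (10.11 ± 0.4808 TPM) span the range of level of the trithorax genes. Beside the counts of these 3 lists, 12.4% of all tested genes were higher and 14.6% lower. EdgeR's exact test called no gene of the 3 lists.

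The H3K27 demethylase genes differed between the libraries. Kdm6b was at 24.21 and 27.98 TPM (1.108-fold by counts, adjusted p = 0.0001318, exact binomial test). The X-linked Kdm6a was at 13.54 and 22.35 TPM, with 1676 and 2496 counts (1.511-fold, adjusted p = 1.76e-37, exact binomial test; adjusted p = 0.201 with edgeR's exact test). Its Y-linked paralog Uty had 1123 counts in replicate 1 and 0 in replicate 2, at least 369-fold higher in replicate 1 when the 0 is set to 3 counts. The labels give pooled sex for both samples and the same pup number. The 0 of replicate 2 goes against its pooled label, and the unequal Uty counts go against the shared pup number. The part of sex in the SD over n = 2 and in the difference of Kdm6a was not tested. Kdm6a and Uty together came to 27.52 and 22.35 TPM.

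Of the genes listed as Polycomb targets, which hold no Hox gene, most were near 0. Cdkn2a, the cell cycle inhibitor locus repressed by Bmi1 and Cbx7, had 1 count in replicate 1 and 0 in replicate 2. Its neighbour Cdkn2b was at 3.43 and 2.3 TPM, with 102 and 64 counts (0.6384-fold, adjusted p = 0.02347, exact binomial test). With edgeR's exact test Cdkn2b was not called (adjusted p = 0.7114). Of all genes tested by the exact binomial test, 14.6% were lower in replicate 2. All 15 listed regulators of other lineages were under 1 TPM in both libraries, and 8 of 15 were at 0 counts in both, which allows up to 3 counts in each. The highest was Pax6, an eye and neural regulator, at 0.38 and 0.18 TPM. On posterior mean TPM, 14 of 15 stayed under 1 in both libraries and Pax6 was at 1.42 and 1.35 TPM.

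**Figure D5:**
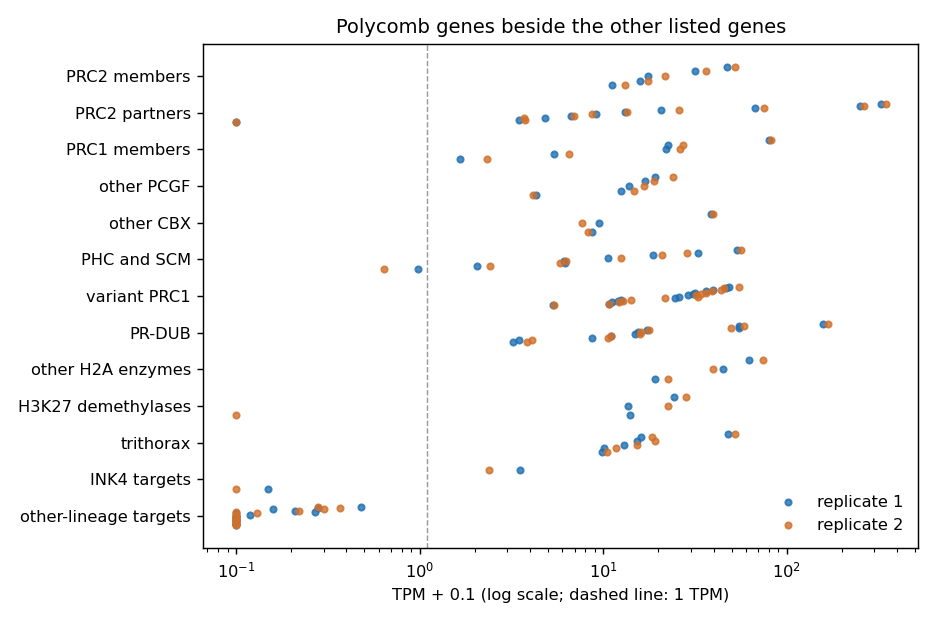
TPM + 0.1 (log axis) of every listed gene in replicate 1 and replicate 2, by group, with a dashed line at 1 TPM. All Polycomb members lie right of the line, and the 15 other-lineage targets lie left of it.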

How the data were processed

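Total RNA of E14.5 mouse limb was sequenced in 2 libraries (mm10 and GENCODE M4, per the labels and sample notes). The aligner, quantifier and strand setting were not given in the sources used here. Expected counts, which need not be whole, TPM, posterior mean TPM, percent of a gene's TPM per transcript, lengths and interval bounds are the deposited values of the authors, as named in the file headers. Symbols and transcript types came from GENCODE M21 (42462 of 43346 genes matched).

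Counts were rounded and tested between libraries by a two-sided exact binomial test given TMM library sizes (10 or more summed counts, Benjamini-Hochberg, threshold 0.05). The code was checked on simulated counts with counting error only and planted changes larger than those called among the 10 genes. That check says nothing about spread between libraries or about differences as small as those called. Ratios used log2(TPM + 0.1), which understates changes of low genes. Analysis used Python 3.11.15, scipy 1.17.1, R 4.3.3, edgeR 4.0.16 and, for other size factors, DESeq2 1.42.0. Alternatives were other scalings, filters, pseudocounts, estimates and tests.

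The members and lists were chosen with earlier results of these data known. Named genes were the 10 members, ratio genes, the 2 highest and 1 lowest of each list other than cell type markers, all INK4 targets and H3K27 demethylases, and genes called past 1.5-fold; named transcripts hold 10% or more of a member in either library. Others were named after their values were seen, as were the family shares' paralogs. Some genes that this rule names are not reported here. Floors cover counting error only, as no molecular identifiers are recorded. The deposited intervals can be far wider than counting error. That of Ezh1-203, with 703.3 counts in replicate 1, ran from 0.2999 to 6.138 TPM. What the intervals cover was not given in the sources used here. Each belongs to a single library, so neither intervals nor floors cover the spread between libraries.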

Additional observations from a re-analysis of the deposited data

How the results depend on the processing

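Of 24 log2 ratios recomputed with another pseudocount, estimate or set of transcripts, 12 moved by less than 1 SD over the libraries, 12 by more and 0 changed direction. Of 13 recomputed counts of genes, 10 were within 1.5 times the reported count and 3 were not. With a pseudocount of 1 the log2 ratios were 1.96 for Ezh2 over Ezh1, 3.59 for Rnf2 over Ring1, 0.62 for Bmi1 over Pcgf2 and 3.16 for Cbx2 over Cbx7. On protein-coding transcripts only they were 2.15 for Ezh2 over Ezh1, 1.22 for Eed over Suz12, 4.32 for Rnf2 over Ring1, 0.92 for Bmi1 over Pcgf2 and 3.91 for Cbx2 over Cbx7. On posterior mean TPM they were 0.98 for Eed over Suz12, 0.71 for Bmi1 over Pcgf2 and 2.74 for Cbx2 over Cbx7. The causes were not tested. Genes called as differing between libraries numbered 5 of 10 with total counts as library sizes (28.4% of all genes), 6 with spike-in counts (30.9%) and 0 with edgeR's exact test (0.668%), against 3 (27%). At a minimum of 5 TPM, 9 of 10 genes were detected. Each library alone gave 1.99 to 2.08 for Ezh2 over Ezh1, 0.99 to 1.05 for Eed over Suz12, 0.16 to 0.31 for Jarid2 over Suz12, 3.67 to 3.89 for Rnf2 over Ring1, 0.65 to 0.66 for Bmi1 over Pcgf2 and 3.56 to 3.76 for Cbx2 over Cbx7; with 2 libraries such values always lie within 1 SD of the mean, so they say nothing about stability, and they leave no test of the library difference. No paired analysis was possible because there is only 1 group. Cbx7 and Ring1, at 121 to 220 counts, are the least precise of the genes.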
